A study of Mus musculus with 35 samples.

Results

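The genes described here are 10 mouse genes named for their use as neutrophil markers: S100a8, S100a9, Cxcr2, Csf3r, Retnlg, Mmp8, Mmp9, Il1b, Ngp and Camp. A probe set was taken for a gene where the platform annotation gave exactly that 1 symbol, and the brightest by its mean over all arrays stood for the gene. By this rule 9 of the 10 genes were measured, of 17097 genes on the array, through 10 probe sets of 45037. Mmp9 had 2 probe sets, and Retnlg was not analysed here. RNA came from the whole lung, and the mice were males of the outbred CD-1 stock from Taconic; Affymetrix arrays were used. The mice breathed styrene, a volatile solvent used to make plastics, at 1, 5, 10, 20, 40 or 120 ppm, or clean air, for 6 hours a day. The 7 groups held 5 mice each, with 1 array per mouse, 35 in all. The labels do not settle the length of exposure: the protocol and titles give a single day, and the series title and sample characteristics give 5 days. Lungs were taken the morning after the last exposure, after pentobarbital and exsanguination. Markers of lung epithelium had a summed level (log2 of the sum over the genes on the linear scale) of 15.54 to 15.65 across the arrays. Their mean log2 level was 12.35 to 12.56 in 1 ppm and air and 12.70 to 12.86 at 5 to 120 ppm, with no overlap.

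Neutrophils are short-lived phagocytes made in the bone marrow, and the lung holds a large pool of them inside its capillaries. They leave the marrow and enter tissue on signals from granulocyte colony-stimulating factor, whose receptor is encoded by Csf3r, and from chemokines such as Cxcl1 and Cxcl2, which bind the receptor encoded by Cxcr2. Their granules are filled in order during maturation, so mRNAs of secondary granule proteins such as Ngp and Camp are abundant in marrow precursors and scarce in mature cells, while S100a8, S100a9, Mmp8, Mmp9, Csf3r and Cxcr2 mRNAs persist or appear later. S100a8 and S100a9 form calprotectin, a calcium- and zinc-binding complex. Il1b encodes interleukin-1 beta, which monocytes and macrophages make as well.

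The promoters of S100a8, S100a9, Il1b, Ngp and Camp are shown because the levels of the first pair moved almost in parallel from mouse to mouse, Il1b was higher in most styrene groups, and the last pair was lower. Each window holds the 250 bases before the start of transcription in RefSeq, build GRCm38.p6, written 5′ to 3′ on the strand of the gene, and the windows lie at chr3:90668821-90669070 (plus strand), chr3:90695722-90695971 (minus), chr2:129371140-129371389 (minus), chr9:110419558-110419807 (plus) and chr9:109849457-109849706 (minus). Capitals mark matches, on either strand, to the TATA box string TATAAA, to TTNNGNAA (the core bound by C/EBP factors) and to GAGGAA (the core bound by PU.1).
S100a8: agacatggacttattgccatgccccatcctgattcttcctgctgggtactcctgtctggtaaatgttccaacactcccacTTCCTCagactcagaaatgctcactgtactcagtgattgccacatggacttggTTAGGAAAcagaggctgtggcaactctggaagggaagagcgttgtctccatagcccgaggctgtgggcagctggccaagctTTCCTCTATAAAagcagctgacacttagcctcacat
S100a9: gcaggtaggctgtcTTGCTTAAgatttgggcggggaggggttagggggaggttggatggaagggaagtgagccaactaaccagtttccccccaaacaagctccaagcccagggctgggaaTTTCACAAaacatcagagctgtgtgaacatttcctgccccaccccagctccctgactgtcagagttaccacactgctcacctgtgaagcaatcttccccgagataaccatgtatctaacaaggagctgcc
Il1b: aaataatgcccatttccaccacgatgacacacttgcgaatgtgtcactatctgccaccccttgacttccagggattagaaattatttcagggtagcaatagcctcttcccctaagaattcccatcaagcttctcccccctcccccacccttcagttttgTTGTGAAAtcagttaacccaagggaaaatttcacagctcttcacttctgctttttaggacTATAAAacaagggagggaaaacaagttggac
Ngp: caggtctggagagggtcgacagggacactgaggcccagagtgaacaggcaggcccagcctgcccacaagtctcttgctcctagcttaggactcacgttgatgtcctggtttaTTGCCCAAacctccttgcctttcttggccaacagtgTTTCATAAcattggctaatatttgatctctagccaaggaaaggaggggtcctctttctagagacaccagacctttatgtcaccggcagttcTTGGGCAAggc
Camp: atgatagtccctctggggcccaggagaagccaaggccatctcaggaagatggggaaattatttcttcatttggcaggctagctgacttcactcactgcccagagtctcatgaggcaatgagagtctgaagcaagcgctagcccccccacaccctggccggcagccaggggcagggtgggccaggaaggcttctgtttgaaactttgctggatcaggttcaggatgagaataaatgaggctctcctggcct
A window was given for 9 of the 10 genes, Mmp9 being the exception. TATAAA occurred in 2 of the 9 windows (S100a8 and Il1b) and in 12.4% of all 32851 windows of this length. TTNNGNAA occurred in 6 of the 9 and in 36.8% of all windows, and GAGGAA in 4 of the 9 and in 23.3% of all. In the S100a8 window a GAGGAA match on the minus strand directly adjoins the TATA box. Camp had no match to any of the 3 strings, which says only that these letters are not in its window. S100a8 and S100a9 are neighbouring protein-coding genes on chromosome 3.

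Levels are the deposited log2 values, so a difference of 1 is a doubling. Which of several probe sets reads higher depends on the probes as well as the mRNA, so differences between genes within a mouse are used only to compare mice. Array medians lay between 4.35 and 4.56. Cxcr2 in all groups, and Mmp8 in air, read near or below these medians. Ngp at 10 and 120 ppm and Camp at 120 ppm also averaged near them. The arrays fell into sets that followed the concentration labels. The interquartile range of an array's values was 3.28 to 3.54 on the 25 arrays at 5 to 120 ppm and 2.66 to 3.16 on the 10 arrays of 1 ppm and air, with no overlap. No label gives a processing batch, so exposure and any difference in handling between these sets cannot be told apart in the comparisons of 5 to 120 ppm with air. For that reason results are also given within the 5 to 120 ppm arrays. All 6 comparisons with air share the same 5 air mice. The labels name separate mice but nothing on how their samples were processed.

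Neutrophil genes did not move as a block. Against air, Il1b rose at 4 of the 6 concentrations and Mmp8 at 3, Mmp9 and Camp fell at 5, Ngp at 4 and Csf3r at 2, and S100a8, S100a9 and Cxcr2 did not pass the test at any concentration in the fit of all 7 groups. In whole lung, fewer neutrophils and less of these mRNAs per neutrophil cannot be told apart. In limma fits adjusted over all genes, 2 of the 9 rose and 4 fell at 5 ppm, where 77% of all genes were called (29.6% higher and 47.4% lower). At 10 ppm 2 rose and 3 fell, against 66.4% of all genes called (29% higher, 37.4% lower). At 20 ppm 1 rose and 2 fell, against 63.6% (29.4% higher, 34.2% lower), and at 40 ppm 0 rose and 4 fell, against 64.8% (28.6% higher, 36.2% lower). At 120 ppm 2 rose and 3 fell, against 68.9% (29.8% higher, 39.1% lower). At each of these concentrations the share of the 9 genes called was below that of all genes. At 1 ppm 0 of the 9 were called, 1 had an unadjusted p under 0.05, and 2.46% of all genes were called. In a fit of the level on the logarithm of concentration over all 7 groups, 2 rose and 4 fell, against 72.6% of all genes (30.9% higher, 41.8% lower). The same fit on the 5 to 120 ppm arrays called 0 of the 9 and 1 of all genes. The median log2 difference over the 9 genes was -0.25, -0.14, -0.51, -0.30, -0.80 and -0.35 from 1 to 120 ppm, beside -0.04, -0.23, -0.14, -0.11, -0.13 and -0.15 over all genes.

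**Figure D1:**
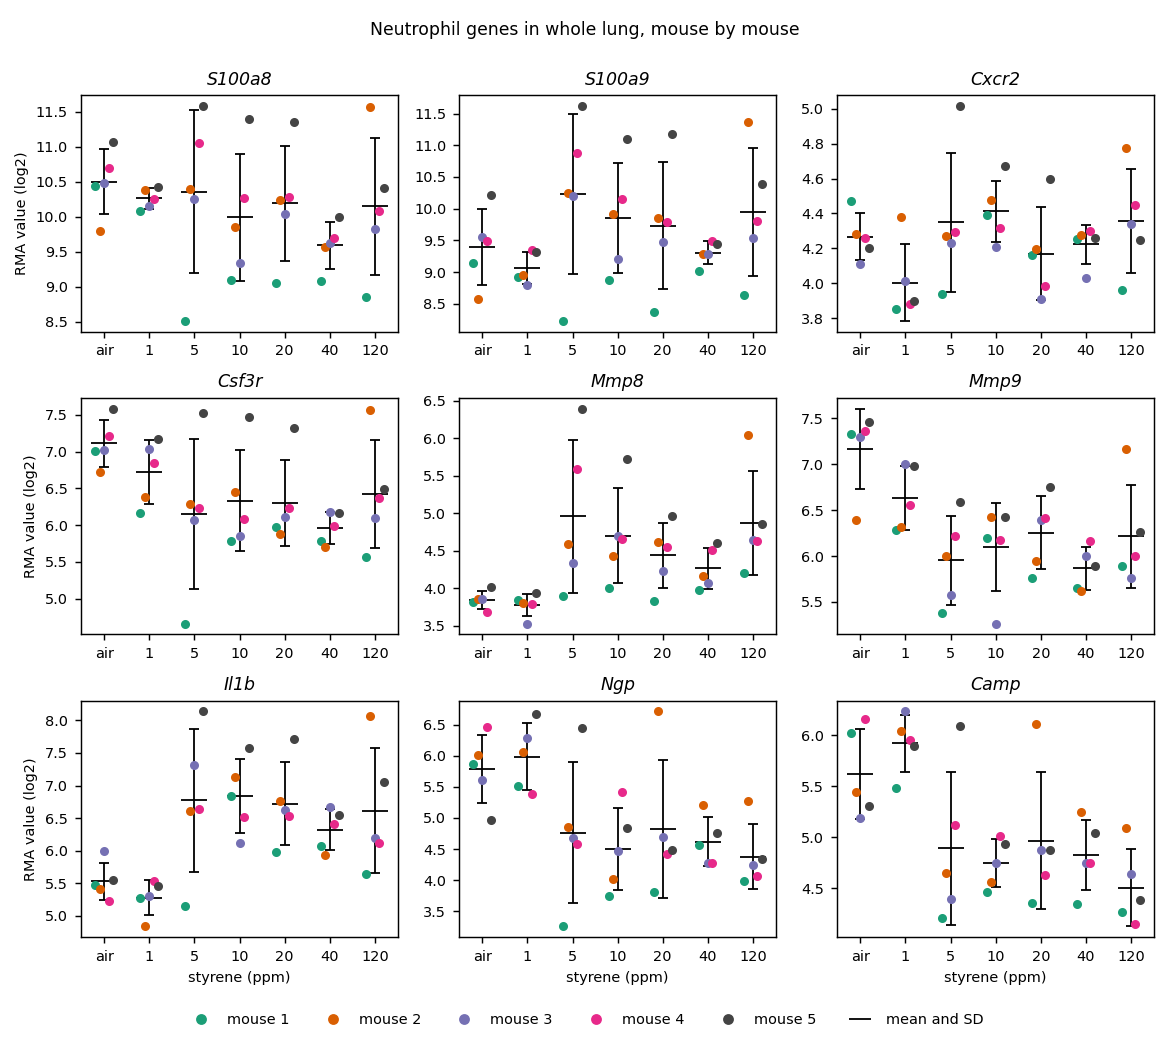
RMA value on the log2 scale (vertical axis) of the 9 measured neutrophil genes in each mouse, by styrene concentration in ppm (horizontal axis). Points are mice, coloured by the mouse number in the labels, and bars give the group mean and SD (n = 5). S100a8 and S100a9 spread most at 5 ppm, Il1b and Mmp8 sit higher at most concentrations from 5 ppm than in air, and Mmp9, Ngp and Camp sit lower.

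S100a8 and S100a9, the calprotectin subunits, had an SD of 0.77 and 0.83 (log2) between mice of a group, and neither was called. S100a8 read 10.44, 9.80, 10.49, 10.70 and 11.08 in the 5 air mice, and 10.09, 10.39, 10.16, 10.25 and 10.43 in those at 1 ppm. At 5 ppm S100a8 read 8.51, 10.39, 10.26, 11.06 and 11.58, and at 10 ppm it read 9.09, 9.86, 9.34, 10.27 and 11.40. With 20 ppm, S100a8 came to 9.05, 10.25, 10.05, 10.28 and 11.36, with 40 ppm to 9.08, 9.56, 9.62, 9.70 and 9.99, and with 120 ppm to 8.86, 11.57, 9.83, 10.08 and 10.41. Every styrene group overlapped the air group, and the lowest and highest of the 35 values (8.51 and 11.58) both came from the 5 ppm group. These mice spanned 8.42-fold at 5 ppm and 6.54-fold at 120 ppm, against 2.43-fold in air, while the 1 ppm mice spanned 1.27-fold. S100a8 averaged 10.15 ± 0.98 at 120 ppm and 10.50 ± 0.47 in air (SD, n = 5 each), a log2 difference of -0.35 (95% confidence interval -1.28 to 0.58, adjusted p = 0.494). The difference furthest from 0 was -0.91 at 40 ppm (SE 0.46, adjusted p = 0.0792), and it passed the test without air mouse 2, at -1.09 (adjusted p = 0.0498). It also passed at the same size when only the 40 ppm and air groups were fitted (adjusted p = 0.00309). With other single mice left out, the adjusted p at 40 ppm reached 0.164.

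S100a9 read 9.14, 8.58, 9.55, 9.49 and 10.21 in the 5 air mice, and 8.92, 8.96, 8.80, 9.36 and 9.32 in those at 1 ppm. At 5 ppm S100a9 read 8.23, 10.24, 10.21, 10.87 and 11.62, and at 10 ppm it read 8.88, 9.92, 9.20, 10.15 and 11.10. With 20 ppm, S100a9 came to 8.37, 9.85, 9.47, 9.79 and 11.17, with 40 ppm to 9.02, 9.28, 9.29, 9.48 and 9.44, and with 120 ppm to 8.64, 11.36, 9.54, 9.81 and 10.39. The S100a9 values at 5 ppm ran 10.5-fold from the lowest mouse to the highest, and mouse 1 stood lowest in each group from 5 to 120 ppm, as it did for S100a8. S100a9 averaged 10.23 ± 1.26 at 5 ppm and 9.39 ± 0.60 in air (SD, n = 5 each), a log2 difference of 0.84 (95% confidence interval -0.16 to 1.84, adjusted p = 0.116). Without mouse 1 of the 5 ppm group this difference was 1.34 (adjusted p = 0.00905), and against the 1 ppm mice in place of air it was 1.16 (adjusted p = 0.0306). Over the 10 fits that left out 1 mouse it ran from 0.49 to 1.34, with an adjusted p of up to 0.362. The call changed in 1 of these 10 fits. At 120 ppm the difference was 0.55 (adjusted p = 0.312), and mouse 2 of that group, at 11.36, stood above all air mice.

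The offset between the calprotectin subunits separated the array sets, although neither gene passed the test. S100a9 minus S100a8 within a mouse ran from -0.67 to 0.06 in the 25 mice at 5 to 120 ppm, with a mean of -0.24, and from -1.43 to -0.86 in the 10 mice of 1 ppm and air, with a mean of -1.15. These ranges do not overlap, with group means of -1.19 at 1 ppm, -0.13 at 5 ppm and -0.20 at 120 ppm, beside -1.11 in air. The S100a8 probe set is of a type that can match more than 1 transcript, as its name ending shows. Since the offset follows the array sets, it cannot be told apart from them.

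**Figure D2:**
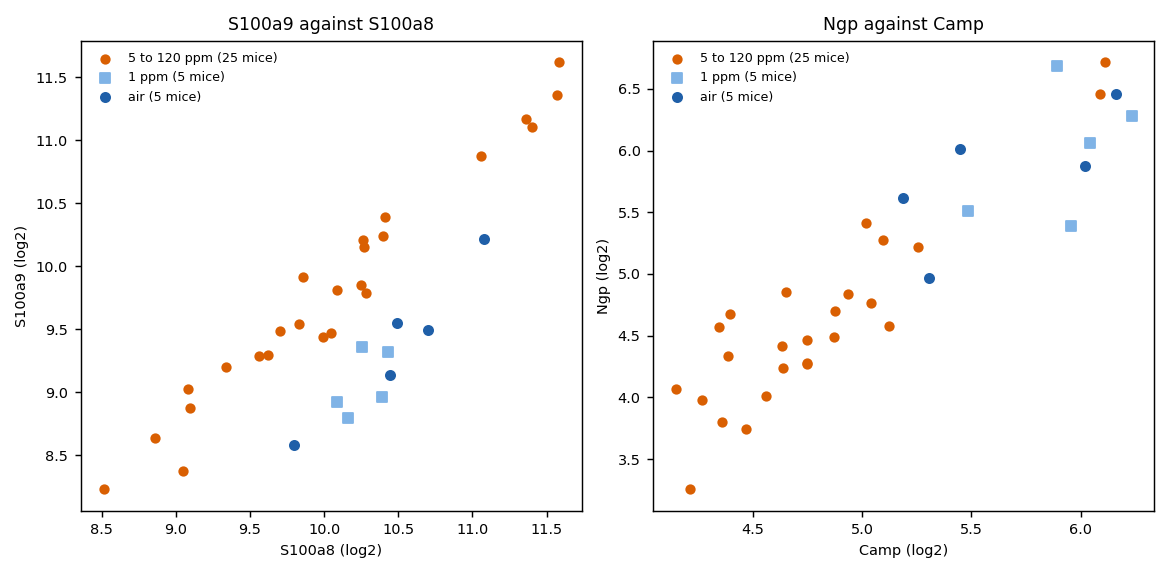
Each point is a mouse, with S100a9 (log2, vertical) against S100a8 (log2, horizontal) on the left and Ngp against Camp on the right, coloured by 5 to 120 ppm (25 mice), 1 ppm (5 mice) and air (5 mice). On the left the 5 to 120 ppm mice lie on a band above that of the 1 ppm and air mice, and on the right the sets run along a common line, with most mice at 5 to 120 ppm at its low end.

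Csf3r, the receptor for granulocyte colony-stimulating factor, was lower in all styrene groups on average and passed the test at 5 and 40 ppm. Csf3r read 7.01, 6.73, 7.02, 7.22 and 7.59 in the 5 air mice, and 6.17, 6.38, 7.04, 6.85 and 7.17 in those at 1 ppm. At 5 ppm Csf3r read 4.66, 6.29, 6.07, 6.23 and 7.53, and at 10 ppm it read 5.79, 6.45, 5.86, 6.09 and 7.47. With 20 ppm, Csf3r came to 5.98, 5.88, 6.11, 6.23 and 7.33, with 40 ppm to 5.79, 5.70, 6.17, 5.99 and 6.16, and with 120 ppm to 5.57, 7.57, 6.10, 6.37 and 6.49. The 40 ppm mice all read below every air mouse, while at 5, 10, 20 and 120 ppm a single mouse read 7.33 to 7.57 and the other 4 read at or below 6.49. Of all genes, 47.6% separated fully from air at 40 ppm, in either direction. Csf3r averaged 5.96 ± 0.22 at 40 ppm and 7.11 ± 0.32 in air (SD, n = 5 each), and fell by 1.15 on the log2 scale (SE 0.37, adjusted p = 0.00741), which is 2.22-fold. At 5 ppm it fell by 0.96 (adjusted p = 0.0202), a call lost without air mouse 5, at -0.84 (adjusted p = 0.0535), or without mouse 1 of the 5 ppm group, at -0.58 (adjusted p = 0.124). The differences at 10, 20 and 120 ppm were -0.78, -0.81 and -0.69 (adjusted p = 0.0618, 0.0567 and 0.0952). Each passed when the highest mouse was left out, at -1.07 (adjusted p = 0.0124) for 10 ppm, -1.06 (adjusted p = 0.0154) for 20 ppm and -0.98 (adjusted p = 0.02) for 120 ppm; that at 20 ppm also passed without air mouse 2, at -0.90 (adjusted p = 0.0481). Leaving out other single mice raised the adjusted p at 10, 20 and 120 ppm to as much as 0.147, 0.125 and 0.269. Against the 1 ppm mice in place of air, Csf3r at 5 and 40 ppm was not called, at -0.57 and -0.76 (adjusted p = 0.157 and 0.067).

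Cxcr2, the receptor for neutrophil-attracting chemokines, stayed between 3.85 and 5.01 in all mice, close to the array medians. It averaged 4.36 ± 0.30 at 120 ppm, 4.35 ± 0.40 at 5 ppm and 4.27 ± 0.13 in air (SD, n = 5 each). Its log2 differences from air were -0.26, 0.08, 0.14, -0.10, -0.04 and 0.09 from 1 to 120 ppm (SE 0.15), and none was called. The interval at 120 ppm was -0.22 to 0.40. Against the 1 ppm mice in place of air, Cxcr2 was called at 5, 10 and 120 ppm, at 0.35, 0.41 and 0.35 (adjusted p = 0.0382, 0.0181 and 0.0389). Its highest values, 5.01 at 5 ppm and 4.78 at 120 ppm, came from the mice that were also highest for S100a8, S100a9, Mmp8 and Il1b in those groups.

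The collagenase and the gelatinase of the granules went opposite ways. Mmp8, the neutrophil collagenase, rose at 5, 10 and 120 ppm. Mmp8 read 3.81, 3.85, 3.85, 3.68 and 4.01 in the 5 air mice, and 3.84, 3.80, 3.53, 3.79 and 3.93 in those at 1 ppm. At 5 ppm Mmp8 read 3.89, 4.58, 4.33, 5.59 and 6.39, and at 10 ppm it read 4.00, 4.43, 4.69, 4.66 and 5.72. With 20 ppm, Mmp8 came to 3.82, 4.62, 4.23, 4.55 and 4.96, with 40 ppm to 3.98, 4.16, 4.07, 4.51 and 4.60, and with 120 ppm to 4.20, 6.04, 4.64, 4.62 and 4.85. The 10 mice of air and 1 ppm lay within 3.53 to 4.01, and the 5 mice at 120 ppm all read above the air mice. At 120 ppm 50.7% of all genes separated fully from air, in either direction. Mmp8 averaged 4.96 ± 1.02 at 5 ppm, 4.70 ± 0.63 at 10 ppm, 4.87 ± 0.70 at 120 ppm and 3.84 ± 0.12 in air (SD, n = 5 each). It rose by 1.12 at 5 ppm (SE 0.33, adjusted p = 0.0033), by 0.86 at 10 ppm (adjusted p = 0.024) and by 1.03 at 120 ppm (adjusted p = 0.00724) on the log2 scale. No fold is given, because Mmp8 in every air mouse read below every array median. Without mouse 5 of the 10 ppm group the difference there was 0.61 (adjusted p = 0.11). At 20 and 40 ppm the differences were 0.60 and 0.42 (adjusted p = 0.117 and 0.267); both passed when only the groups compared were fitted (adjusted p = 0.0129 and 0.0148).

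Mmp9, the gelatinase of the tertiary granules, was lower at every concentration from 5 to 120 ppm. Mmp9 read 7.33, 6.39, 7.29, 7.36 and 7.46 in the 5 air mice, and 6.29, 6.31, 7.00, 6.56 and 6.98 in those at 1 ppm. At 5 ppm Mmp9 read 5.38, 6.00, 5.58, 6.22 and 6.58, and at 10 ppm it read 6.20, 6.43, 5.27, 6.18 and 6.43. With 20 ppm, Mmp9 came to 5.76, 5.94, 6.40, 6.41 and 6.75, with 40 ppm to 5.65, 5.62, 6.01, 6.17 and 5.90, and with 120 ppm to 5.89, 7.16, 5.76, 6.00 and 6.26. Air mouse 2 read 6.39, within the range of most styrene groups, and the other 4 air mice read 7.29 to 7.46. Mmp9 averaged 5.87 ± 0.23 at 40 ppm, 6.21 ± 0.56 at 120 ppm and 7.17 ± 0.44 in air (SD, n = 5 each). It fell by 1.21, 1.07, 0.91, 1.30 and 0.95 on the log2 scale from 5 to 120 ppm (SE 0.26, adjusted p = 9.17e-05, 0.000537, 0.00267, 4.95e-05 and 0.00163), so that at 40 ppm it was 2.46-fold lower. At 1 ppm the difference was -0.54 (adjusted p = 0.306). These calls held in every fit that left out 1 mouse. The second Mmp9 probe set averaged 5.01 ± 0.45 at 5 ppm, 5.30 ± 0.62 at 120 ppm and 6.91 ± 0.42 in air (SD, n = 5 each). Set against the 1 ppm mice in place of the air mice, the Mmp9 differences were -0.53, -0.38 and -0.41 at 10, 20 and 120 ppm and were not called there (adjusted p = 0.0664, 0.196 and 0.147).

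Ngp and Camp, proteins of the secondary granules with a cathelin-like domain, whose mRNAs belong to immature neutrophils, were lower: Ngp fell at 5, 10, 40 and 120 ppm, and Camp at each concentration from 5 to 120 ppm. Ngp read 5.87, 6.01, 5.62, 6.46 and 4.97 in the 5 air mice, and 5.51, 6.06, 6.28, 5.39 and 6.68 in those at 1 ppm. At 5 ppm Ngp read 3.26, 4.86, 4.67, 4.58 and 6.45, and at 10 ppm it read 3.75, 4.01, 4.47, 5.41 and 4.83. With 20 ppm, Ngp came to 3.80, 6.72, 4.70, 4.42 and 4.49, with 40 ppm to 4.57, 5.21, 4.27, 4.28 and 4.77, and with 120 ppm to 3.98, 5.27, 4.24, 4.07 and 4.33. At 120 ppm 4 of the 5 mice read 4.33 or less and mouse 2 read 5.27, against 4.97 to 6.46 in air. Ngp averaged 4.38 ± 0.52 at 120 ppm and 5.79 ± 0.55 in air (SD, n = 5 each), and fell by 1.41 on the log2 scale (SE 0.45, adjusted p = 0.00607). No fold is given for Ngp, because those 4 mice at 120 ppm read below every array median (4.35 to 4.56). Ngp fell by 1.02 at 5 ppm, 1.29 at 10 ppm and 1.17 at 40 ppm (adjusted p = 0.0379, 0.0118 and 0.0225). The call at 5 ppm was lost without any of air mice 1, 2 and 4 or 5 ppm mice 1, 3 and 4 (adjusted p between 0.0606 and 0.176), the difference being -0.64 (adjusted p = 0.176) without mouse 1 of the 5 ppm group, and that at 40 ppm without air mouse 4 (adjusted p = 0.0654). At 20 ppm the difference was -0.96 (adjusted p = 0.0592). Without mouse 2, which read 6.72, it was -1.43 (adjusted p = 0.00314), and it passed as well without air mouse 5 (adjusted p = 0.03). Other single mice left out brought the adjusted p at 20 ppm to as much as 0.18.

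Camp read 6.02, 5.45, 5.19, 6.16 and 5.30 in the 5 air mice, and 5.48, 6.04, 6.23, 5.95 and 5.89 in those at 1 ppm. At 5 ppm Camp read 4.21, 4.65, 4.39, 5.12 and 6.09, and at 10 ppm it read 4.47, 4.56, 4.75, 5.02 and 4.93. With 20 ppm, Camp came to 4.36, 6.11, 4.87, 4.63 and 4.87, with 40 ppm to 4.34, 5.25, 4.75, 4.75 and 5.04, and with 120 ppm to 4.27, 5.10, 4.64, 4.15 and 4.38. All mice at 10 ppm and all at 120 ppm read below every air mouse, while mouse 5 at 5 ppm (6.09) and mouse 2 at 20 ppm (6.11) read within the air range. Of all genes, 49.2% separated fully from air at 10 ppm and 50.7% at 120 ppm, in either direction. Camp averaged 4.51 ± 0.38 at 120 ppm and 5.62 ± 0.44 in air (SD, n = 5 each), and fell by 1.12 on the log2 scale (SE 0.28, adjusted p = 0.00088). No fold is given for Camp, because its mean at 120 ppm lay within the range of the array medians (4.35 to 4.56). Camp fell by 0.73, 0.88, 0.66 and 0.80 at 5, 10, 20 and 40 ppm (adjusted p = 0.0208, 0.00759, 0.0448 and 0.015). The calls at 10 and 120 ppm held without any 1 mouse. The others did not: without air mouse 1 or 4 or mouse 1 or 3 of the group the adjusted p at 5 ppm was 0.0594 to 0.0814. At 20 ppm it was 0.0713 to 0.137 without air mouse 1 or 4 or mouse 1, 3, 4 or 5, and at 40 ppm 0.0531 without air mouse 4 and 0.0502 without mouse 1. The offset of Ngp and Camp overlapped between the array sets: Ngp minus Camp ran from -0.95 to 0.61 at 5 to 120 ppm and from -0.57 to 0.79 in 1 ppm and air.

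Il1b, the cytokine of the list, was higher at 5, 10, 20 and 120 ppm. Il1b read 5.47, 5.41, 6.00, 5.23 and 5.55 in the 5 air mice, and 5.27, 4.84, 5.30, 5.53 and 5.46 in those at 1 ppm. At 5 ppm Il1b read 5.15, 6.61, 7.31, 6.64 and 8.14, and at 10 ppm it read 6.84, 7.13, 6.12, 6.52 and 7.58. With 20 ppm, Il1b came to 5.98, 6.77, 6.63, 6.53 and 7.71, with 40 ppm to 6.07, 5.93, 6.66, 6.42 and 6.54, and with 120 ppm to 5.64, 8.06, 6.20, 6.11 and 7.06. All 10 ppm mice read above every air mouse, whereas at 5 ppm mouse 1, at 5.15, read below them all and the other 4 above them all. Full separation from air, in either direction, held for 49.2% of all genes at 10 ppm. Il1b averaged 6.77 ± 1.10 at 5 ppm, 6.84 ± 0.56 at 10 ppm, 6.72 ± 0.63 at 20 ppm, 6.61 ± 0.96 at 120 ppm and 5.53 ± 0.29 in air (SD, n = 5 each). It rose by 1.24, 1.31, 1.19 and 1.08 on the log2 scale at these concentrations (SE 0.39, adjusted p = 0.00531, 0.00424, 0.00907 and 0.0157), and at 10 ppm this was 2.47-fold. At 40 ppm the difference was 0.79 (adjusted p = 0.0757); it passed when only these groups were fitted (adjusted p = 0.00135) and, at 1.04, against the 1 ppm mice (adjusted p = 0.0192). After quantile normalization the differences at 20 and 120 ppm were 0.91 (adjusted p = 0.0553) and 0.77 (adjusted p = 0.0988). Without mouse 2, the highest of the 120 ppm group at 8.06, the difference there was 0.72 (adjusted p = 0.0901). Alveolar macrophages can also make Il1b. Of 9 measured markers of those cells, 5 or 6 rose at each of 5, 10, 20 and 120 ppm, and 1 fell at 5 and at 120 ppm. Of all genes, 29% to 29.8% were called higher at these concentrations. The markers had a summed level of 13.51 to 14.08 (log2) at 120 ppm and 12.40 to 12.79 in air. Their part in the Il1b difference was not tested.

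**Figure D3:**
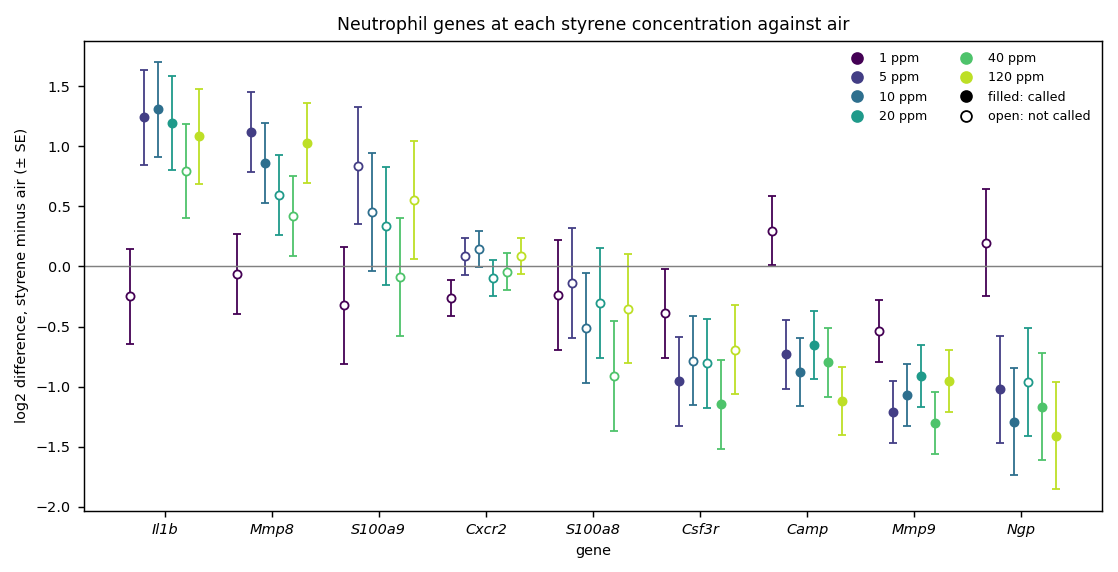
Log2 difference from air (vertical axis, styrene minus air, with its SE) for the 9 neutrophil genes, with the concentrations from 1 to 120 ppm side by side for each gene. Filled points passed an adjusted p of 0.05 and open points did not. Il1b and Mmp8 lie above 0 from 5 to 120 ppm, Csf3r, Camp, Mmp9 and Ngp below 0, and S100a9, Cxcr2 and S100a8 have no filled point.

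Within the 5 to 120 ppm arrays, 5 ppm and 120 ppm were each set against 10 to 40 ppm, while 10, 20 and 40 ppm were not compared with each other. Set against the 15 mice at 10 to 40 ppm, the 5 ppm mice had 0 of 9 neutrophil genes called, against 42.3% of all genes, and 0 of the 9 had an unadjusted p under 0.05. The differences ran from -0.12 to 0.61, with a median of 0.12 over the 9 and -0.12 over all genes. S100a9 differed by 0.61 (95% confidence interval -0.21 to 1.42, adjusted p = 0.231) and Mmp8 by 0.49 (-0.06 to 1.05, adjusted p = 0.150). Without mouse 1 of the 5 ppm group 3 of the 9 were called, S100a9 at 1.11 (adjusted p = 0.0212), S100a8 at 0.90 (adjusted p = 0.0451) and Mmp8 at 0.76 (adjusted p = 0.0295). The 42.3% of all genes belongs to the fit of all mice, and the share without that mouse is not given here. Over the 20 fits that left out 1 mouse, S100a9 ran from 0.26 to 1.11 and Mmp8 from 0.13 to 0.76. Their adjusted p reached 0.655 and 0.715, and for each gene the call changed in 1 fit. The 120 ppm mice against the same 15 mice had 0 of 9 called, 0 at an unadjusted p under 0.05, and 0.0936% of all genes called. Mmp8 differed by 0.40 (-0.15 to 0.96) and Camp by -0.34 (-0.81 to 0.13) in that comparison. The 9 genes varied widely between mice of a group. Their SD within groups was 0.83 for S100a9, 0.77 for S100a8, 0.75 for Ngp and 0.66 for Il1b, against a median of 0.21 over all genes, and 8 of the 9 genes lay above the 95th percentile of all genes, Cxcr2 (0.25) being the other.

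The genes' deviations from their group means ran together from mouse to mouse. After group means were removed, S100a8 and S100a9 correlated at r = 0.98 over the 35 arrays, S100a8 and Csf3r at 0.90, S100a8 and Mmp8 at 0.88, and S100a9 and Il1b at 0.84. The 21 pairs among the 7 genes other than Ngp and Camp ran from 0.49 to 0.98, with a median of 0.75. Ngp and Camp correlated with each other at 0.86 and with the other 7 at 0.29 to 0.63, median 0.49. Over the 25 arrays at 5 to 120 ppm the 21 pairs lay between 0.66 and 0.99 (median 0.81), and over the 10 arrays of 1 ppm and air between -0.75 and 0.91 (median 0.27). These are descriptions across mice, which share a group's handling and array set.

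**Figure D4:**
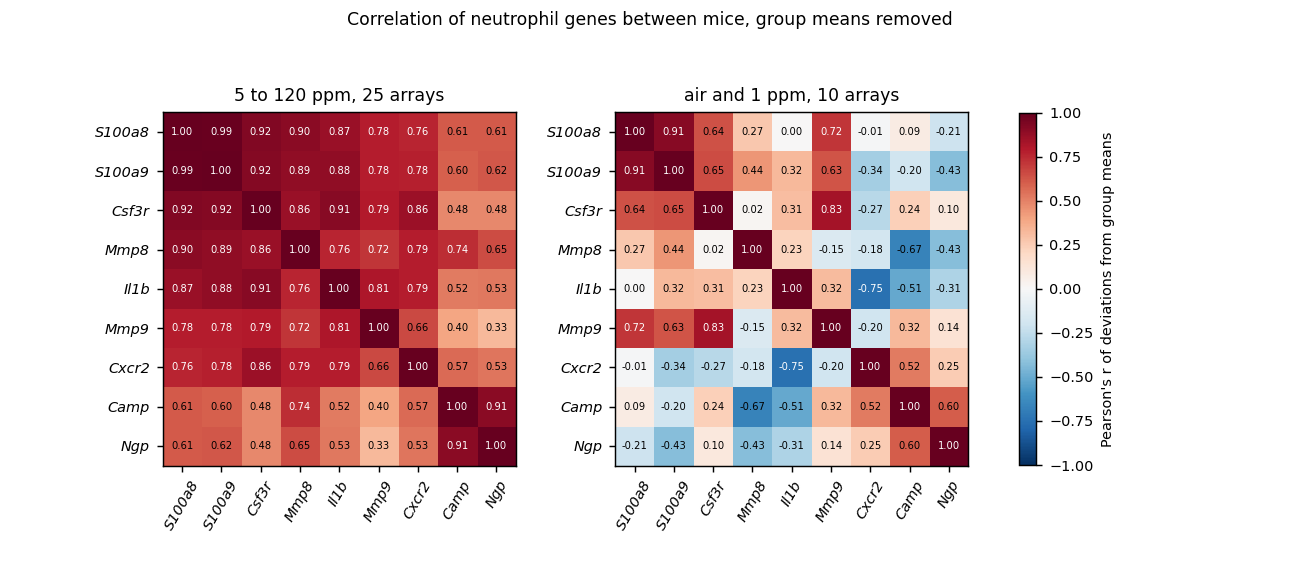
Pearson's r, printed in each cell, between the neutrophil genes' deviations from their group means, over the 25 arrays at 5 to 120 ppm (left) and the 10 arrays of 1 ppm and air (right). At 5 to 120 ppm the 7 genes from S100a8 to Cxcr2 correlate at 0.66 or more, while in the 10 other arrays only part of the pairs, such as S100a8 with S100a9 at 0.91, stay high.

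The mean of the calprotectin genes was added as a covariate to the fits of the other 7 genes. This was chosen after the data were seen, and it asks how a gene differed from air at a given mean of S100a8 and S100a9. S100a9 minus S100a8 averaged -1.15 in 1 ppm and air and -0.24 at 5 to 120 ppm. A given mean was therefore not the same pair of levels in the 2 array sets, and the differences from air carry this offset. At each concentration from 5 to 120 ppm, 2 of the 7 were then higher (Il1b and Mmp8) and 4 lower (Csf3r, Mmp9, Ngp and Camp), while 76.6%, 66.6%, 63.7%, 64.9% and 69.0% of all genes were called from 5 to 120 ppm. Il1b was 1.00, 1.33, 1.18, 1.14 and 1.01 higher from 5 to 120 ppm (SE 0.22), now called at 40 ppm too (adjusted p = 4.86e-05). Csf3r was lower, at -1.20, -0.76, -0.82, -0.80 and -0.76 (SE 0.17, adjusted p = 0.000204 at 10 ppm and 0.000196 at 120 ppm). At 20 and 40 ppm Mmp8 stood at 0.59 and 0.73 (SE 0.17). Cxcr2 was not called at any concentration, and at 1 ppm 0 of the 7 were called. Within the 5 to 120 ppm arrays, Csf3r at 5 ppm against 10 to 40 ppm was -0.41 (adjusted p = 0.0202), the 1 gene of the 7 called there, beside 40.7% of all genes.

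**Figure D5:**
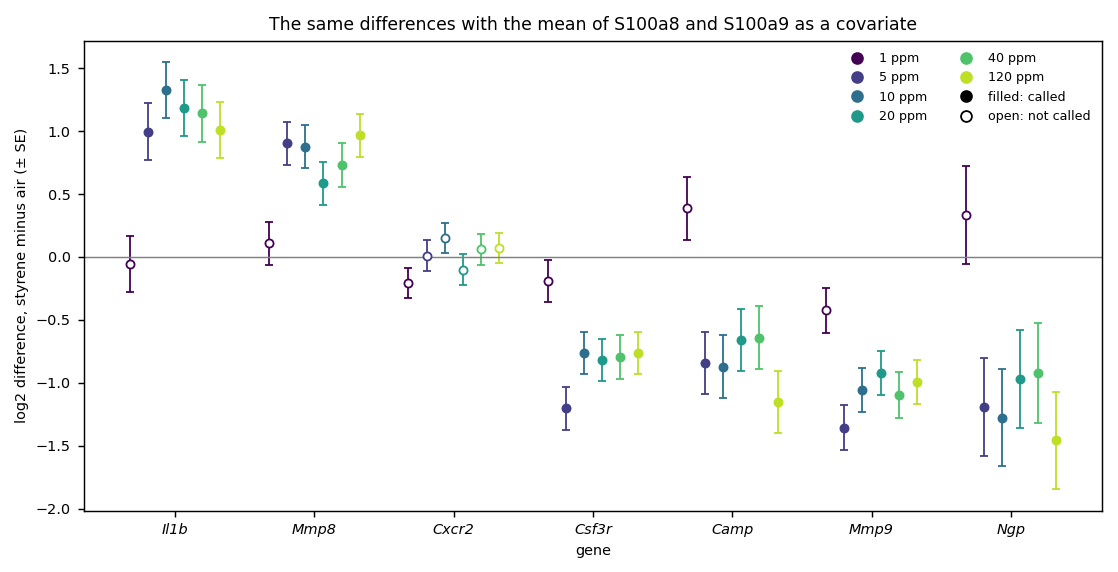
Log2 difference from air (vertical axis, styrene minus air, with its SE) for the 7 neutrophil genes other than S100a8 and S100a9, fitted with the mean of those as a covariate, by concentration from 1 to 120 ppm. Filled points passed an adjusted p of 0.05. From 5 to 120 ppm all points of Il1b and Mmp8 are filled above 0, all of Csf3r, Camp, Mmp9 and Ngp are filled below 0, and none of Cxcr2 is filled.

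With each array's interquartile range as a covariate, a fit that extrapolates because the sets do not overlap, 2 of the 9 genes were called at each of 5, 10, 20 and 40 ppm and 1 at 120 ppm. Mmp9 stayed lower at all 5 concentrations (-1.76, -1.51, -1.34, -1.75 and -1.42), and Csf3r was lower from 5 to 40 ppm (-2.10, -1.72, -1.70 and -2.09). Of all genes 34.1%, 28.8%, 28.2%, 28.3% and 29.5% were called from 5 to 120 ppm in that fit. The other genes were not called, but their sizes differed. Ngp stood at -1.39, -1.59, -1.25, -1.47 and -1.73 from 5 to 120 ppm and Camp at -0.61, -0.78, -0.56, -0.70 and -1.01, both below 0 at all 5 concentrations. Il1b stood at 0.08, 0.36, 0.30, -0.15 and 0.09, and Mmp8 at 0.52, 0.38, 0.14, -0.063 and 0.52.

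The genes whose levels followed the mean of the neutrophil genes most closely from mouse to mouse, over 35 arrays with group means removed, were Slfn4 (r = 0.93), Clec4d (0.92), Stfa2l1 (0.86), Clec4e (0.83) and Ifitm6 (0.81). Clec4d and Clec4e encode C-type lectin receptors of myeloid cells, Slfn4 a member of the Schlafen family, Stfa2l1 a stefin-type inhibitor of cysteine proteases, and Ifitm6 a member of a family of interferon-induced membrane proteins. Slfn4 averaged 5.21 ± 1.30 at 5 ppm, 4.15 ± 0.89 at 120 ppm and 3.26 ± 0.09 in air (SD, n = 5 each). It rose by 1.95 at 5 ppm (SE 0.41, adjusted p = 7.32e-05) and stood 1.58 above the 10 to 40 ppm mice (adjusted p = 0.000272), while its difference at 120 ppm was 0.89 (adjusted p = 0.0535). Clec4d averaged 6.72 ± 1.04 at 5 ppm, 6.52 ± 0.86 at 120 ppm and 5.34 ± 0.48 in air (SD, n = 5 each). It rose by 1.38 at 5 ppm and 1.18 at 120 ppm (adjusted p = 0.00191 and 0.00776), and by 0.98 and 1.12 at 10 and 20 ppm. Clec4e rose by 1.05 at 5 ppm (adjusted p = 0.00124), and Stfa2l1 by 1.01 at 120 ppm (adjusted p = 0.0321). Ifitm6 was not called at any concentration. For Ngp the closest genes were Pimreg (0.63) and Slfn4 (0.62), and for Camp H4bc24 (0.71), Bbc3 (0.68) and Alas2 (0.68), the enzyme of haem synthesis in red cell precursors.

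The counts of other genes of neutrophil biology at 120 ppm stand beside 29.8% of all genes called higher and 39.1% lower. Of 6 genes of the azurophil granules and their proteases, 2 rose and 2 fell at 120 ppm: Ctsc, which activates granule serine proteases, by 1.60, Serpinb1a, an inhibitor of them, by 1.41, with Prtn3 at -0.52. Mpo, myeloperoxidase, differed by -0.27 at 120 ppm (adjusted p = 0.0514) and fell by 0.39 at 5 ppm (adjusted p = 0.00491). Of 8 genes of the specific and gelatinase granules outside the main list, 1 rose (Lyz2, 0.33) and 1 fell (Cd177, -0.80) at 120 ppm. Lcn2 differed by 0.31 there (adjusted p = 0.199) and rose by 0.68 at 20 ppm (adjusted p = 0.00636), and Ltf, lactoferrin, had a difference of -0.56 with an SE of 1.18. Of 16 receptors and adhesion molecules measured, 3 rose and 4 fell at 120 ppm, among them the Fc receptor gene Fcgr3 (1.19), the formyl peptide receptor gene Fpr2 (0.98) and Selplg, the selectin ligand (-1.25). Itgam differed by 0.26 and Il1r2 by 0.19, neither called. The medians of these 3 lists at 120 ppm were -0.16, -0.10 and 0.11, beside -0.15 over all genes. Within groups the mean log2 level of the receptor list correlated at r = 0.86 with the mean of the neutrophil genes, and that of the azurophil list at 0.26.

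Of 12 measured genes for neutrophil attractants and growth factors, 1 rose and 3 fell at 120 ppm, where 29.8% of all genes rose and 39.1% fell, and from 5 to 40 ppm 2 rose and 2 to 5 fell. Cxcl1, Cxcl2 and Cxcl5 were not called at any concentration, with differences of -0.32, -0.18 and -0.20 at 120 ppm. Csf3, the ligand of the Csf3r receptor, fell by 0.38 at 120 ppm (adjusted p = 0.00743). Cxcl15, the lung-specific chemokine lungkine, rose by 0.64, and Csf1 and Tnf fell by 0.69 and 0.50. In the interleukin-1 pathway 4 of 9 rose and 2 fell at 120 ppm, a share near the 68.9% of all genes called: the receptor subunit gene Il1rap by 1.51 and Il18 by 1.34 upwards, and the adaptor Myd88 at -1.20. Il1rn, the receptor antagonist, differed by 0.18 (adjusted p = 0.308). The medians of these lists at 120 ppm were -0.19 and 0.18.

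Of 4 measured subunits of the phagocyte NADPH oxidase, Cybb rose by 2.05 at 120 ppm, and its partners Cyba and Ncf4 fell by 1.24 and 0.89. Granulocyte transcription factors fell in 4 of 5 at 120 ppm and in all 5 at 5 and 10 ppm, where 39.1%, 47.4% and 37.4% of all genes fell. At 120 ppm they were led by Cebpa (-1.33), Spi1, which encodes PU.1 (-1.28), and Cebpb (-1.06). Their median there was -1.28, beside -0.15 over all genes. Within groups the mean log2 level of this list correlated at r = -0.06 with the mean of the neutrophil genes. Of 3 inhibitors of metalloproteinases, Timp3 rose by 1.10 and Timp1, which binds Mmp9, fell by 0.61. At 1 ppm 0 genes of these lists were called, and 0 at 120 ppm against 10 to 40 ppm. At 5 ppm against 10 to 40 ppm, where 42.3% of all genes were called, 3 of the 5 transcription factors fell, and 3 of 9 genes of the interleukin-1 pathway rose and 1 fell. In the same comparison the oxidase list had 1 higher and 1 lower of 4, the attractants 1 higher and 1 lower of 12, the receptors 2 higher of 16, the azurophil list 1 higher of 6, the inhibitors 1 lower of 3, and the specific granule list 0 of 8.

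Markers of other cells in the lung are given beside the 29.8% of all genes called higher and 39.1% lower at 120 ppm, and their part in the results above was not tested. Platelet markers fell in 5 of 5 at each concentration from 5 to 120 ppm, Gp1bb by 3.10 at 120 ppm, with a summed level of 8.72 to 9.46 (log2) at 120 ppm and 10.43 to 10.96 in air. Red blood cell markers fell in 2 of 3, Slc4a1 by 2.41, with a summed level of 13.64 to 13.78 at 120 ppm and 13.85 to 13.98 in air. Monocyte markers gave 1 higher and 3 lower of 8 at 120 ppm, F13a1 at 1.84, Ace at -1.28 and Csf1r at -0.41, with a summed level of 9.38 to 10.00 at 120 ppm and 9.84 to 10.62 in air; within groups their mean log2 level correlated at r = 0.81 with the mean of the neutrophil genes. Ccr2, a receptor of classical monocytes, rose by 1.53 at 5 ppm (adjusted p = 0.000336) and differed by 0.67 at 120 ppm (adjusted p = 0.0986). Alveolar macrophage markers gave 6 higher and 1 lower of 9 at 120 ppm, Chil3 at 1.43, Plet1 at 1.38 and Cd9 at 1.20, and their mean log2 level correlated at -0.14 with the neutrophil mean. Markers of T cells gave 3 higher and 1 lower of 5, of B cells 1 and 1 of 4 (Cd79a -0.87), of eosinophils, basophils and mast cells 0 and 1 of 6, and of lung epithelium 1 and 1 of 5.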

How the data were processed

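Whole-lung RNA of 35 male CD-1 mice was measured on Affymetrix arrays, 1 per mouse. The deposited values are log2 probe set summaries, and per the submitters' processing notes the authors used RMA and Partek, with no version or role given. Genome build and batch are not given in the sources used here. Arrays give no depth in reads; precision here is set by their number.

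Platform annotation gave 1 symbol to 28898 probe sets, several to 551 and none to 15588. The brightest probe set per symbol stood for a gene. Group means were fitted with limma 3.58.1 in R 4.3.3 over all 17097 genes, with Benjamini-Hochberg adjustment and a threshold of 0.05. Figures used Python 3.11.15 and matplotlib 3.10.9. The fits were checked on simulated data. The trend used log2(ppm + 1).

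The 10 genes, the 16 other gene lists and all tests were chosen with earlier results of these data known. All 10 were to be named. From another list, up to 3 called genes were named at 120 ppm and up to 2 at other concentrations, by adjusted p, plus 20 fixed genes and the 5 genes most like a pattern. Alternatives covered normalization, probe choice, dim genes, a replicate block, the prior, the arrays' interquartile range, the groups fitted and each mouse left out.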

Additional observations from a re-analysis of the deposited data

Results flagged for a closer look

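Of 63 groups of 5 mice examined for the 9 genes, 5 held a mouse that stood far from the others of its group by Dixon's test at the 95% level (critical value 0.71). Chance flags about 5% of such groups. Ngp at 120 ppm had a highest mouse at 5.27 (mouse 2), with the next at 4.33. Csf3r at 20 ppm had a highest mouse at 7.33 (mouse 5), with the next at 6.23. Cxcr2 at 40 ppm had a lowest mouse at 4.03 (mouse 3), with the next at 4.26. Mmp9 at 10 ppm had a lowest mouse at 5.27 (mouse 3), with the next at 6.18. Mmp9 in air had a lowest mouse at 6.39 (mouse 2), with the next at 7.29.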

How the results depend on the processing

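With the arrays' interquartile range as a covariate, the number of the 9 genes called fell to 2 at 5 ppm (6 as reported), 2 at 10 ppm (5), 2 at 40 ppm (4), 1 at 120 ppm (5) and 0 in the trend (6), and the trend over the 5 to 120 ppm groups alone called 0. Of all genes the covariate fit called 34.1%, 28.8%, 28.3% and 29.5% at these concentrations and 6.94% in the trend. The trend over 5 to 120 ppm alone called 1 of all genes. At 20 ppm, 5 genes were called in place of 3 with medians centred, with dim genes left out or with a replicate block. Beside these, 11533, 8410 and 10884 of all genes were called, the 8410 being of the brighter genes only. With the calprotectin covariate 6 of 7 were called at 20 ppm, beside 63.7% of all genes. At 40 ppm, 7 were called in place of 4 when only the groups compared were fitted, beside 10295 of 17097 genes. At 5 ppm against 10 to 40 ppm the calprotectin covariate gave 1 in place of 0, beside 40.7% of all genes. With 1 mouse left out in turn, 0 to 0 genes were called at 1 ppm, 4 to 6 at 5 ppm, 5 to 5 at 10 ppm, 2 to 4 at 20 ppm, 2 to 5 at 40 ppm, 5 to 5 at 120 ppm, 0 to 3 at 5 ppm against 10 to 40 ppm, 0 to 0 at 120 ppm against 10 to 40 ppm and 5 to 7 in the trend. The share of all genes called in the fits without 1 mouse is not given here, so these ranges show only how the calls moved. The cause of these moves was not tested.

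The labels do not pair mice by number. Of 105 correlations between same-numbered mice 46 were over 0.1 (median 0.06, against -0.01 for other numbers). By mean correlation, 12 of 35 arrays lay closest to their own number. These values do not settle whether mice of a number share anything. With the replicate block the counts were 0 at 1 ppm, 7 at 5 ppm, 6 at each of 10, 40 and 120 ppm, 6 in the trend, and 0 in both comparisons within 5 to 120 ppm. Of 17097 genes the block fit called 425, 13223, 11385, 11097 and 11863 at 1, 5, 10, 40 and 120 ppm. It called 12288 in the trend, and 7365 and 32 at 5 and 120 ppm against 10 to 40 ppm. The block added S100a9 at 5 ppm (adjusted p = 0.0281), S100a8 at 40 ppm (0.0148), Il1b at 40 ppm (0.0406), Ngp at 20 ppm (0.0393) and Csf3r at 10, 20 and 120 ppm (0.0148, 0.0129 and 0.0288), and lost no call.

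Some differences turned sign, among them some that were not small. With the 1 ppm mice in place of air, S100a8 at 5 ppm was 0.10, Cxcr2 0.17 at 20 ppm and 0.22 at 40 ppm, and S100a9 at 40 ppm 0.23. With medians centred, Cxcr2 at 5 ppm was -0.018. With the interquartile range covariate, differences at 1 ppm were 0.16 for S100a8, 0.34 for S100a9, 0.11 for Csf3r, 0.19 for Mmp8 and 0.25 for Il1b. In that fit S100a9 was -0.70, -0.80, -0.86 and -0.77 at 5, 10, 20 and 120 ppm. Without the covariate it was 0.84, 0.45, 0.34 and 0.55. At 40 ppm the covariate fit gave 0.036 for Cxcr2, -0.063 for Mmp8 and -0.15 for Il1b, beside -0.04, 0.42 and 0.79 without it. With the calprotectin covariate, Mmp8 at 1 ppm was 0.11 and Cxcr2 at 40 ppm 0.060.

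With 1 mouse left out in turn, these ranges crossed 0: Cxcr2 -0.083 to 0.19 at 5 ppm, -0.081 to 0.0092 at 40 ppm and -0.017 to 0.19 at 120 ppm, Ngp -0.0051 to 0.37 at 1 ppm, S100a8 -0.45 to 0.32 at 5 ppm, and S100a9 -0.024 to 0.68 at 20 ppm and -0.29 to 0.11 at 40 ppm. Fitting only the groups compared lost Ngp at 5 ppm (adjusted p = 0.053) and Camp at 20 ppm (0.0794), and added Csf3r at 10 and 20 ppm (0.0285 and 0.0158), Mmp8 at 20 and 40 ppm, and S100a8 and Il1b at 40 ppm. The 1 ppm mice in place of air added S100a9 at 5 ppm, Cxcr2 at 5, 10 and 120 ppm, Ngp at 20 ppm (0.0221) and Il1b at 40 ppm, and lost Csf3r at 5 and 40 ppm and Mmp9 at 10, 20 and 120 ppm. A trended and robust prior, or averaging the probe sets of each gene, changed no call of a single gene. Cxcr2 in all groups and Mmp8 in air read near or below the array medians, and Ngp at 10 and 120 ppm and Camp at 120 ppm averaged near them. This limits what the arrays resolve there.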

Other observations

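The mouse numbers in the labels coincided with the order of the calprotectin genes within groups, although nothing in the labels ties mice of a number together. Mouse 1 had the lowest S100a8, S100a9 and Mmp8 in 5 of 5 groups from 5 to 120 ppm, and the lowest Ngp and Camp in 4 of 5. Mouse 5 had the highest S100a8 and Mmp8 in 4 of these 5 groups, and mouse 2 had the highest at 120 ppm. Over these 5 groups, mouse 1 deviated from its group mean by -1.14 on average for S100a8 and by -1.19 for S100a9, and mouse 5 by 0.89 and 0.93.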
